A study of Mus musculus with 6 samples.

Results

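Zic1, Zic2, Zic4 and Zic5 belong to the ZIC family of zinc finger transcription factors. They were taken by symbol from a table of read counts for 31276 genes in 6 libraries of mouse brain RNA, and all 4 were among the 16592 genes that passed a filter on low counts. The mice were of strain C57BL/6 and the brains were taken at postnatal day 14. One group of 3 libraries came from wild-type mice (WT). The other 3 came from mice whose genotype is labelled PRMT5 olig2cre KO (KO), in which Prmt5, the gene for an arginine methyltransferase, is targeted by a Cre recombinase under control of Olig2, a gene of the oligodendrocyte lineage. Cre is therefore expected only in cells that have used Olig2, so a library of brain RNA also holds many cells in which Prmt5 is intact. The labels say neither whether the libraries of a group came from separate animals nor which brain regions were kept, so the spread between libraries may be technical in part. The 4 genes were chosen by their counts in 2 comparisons of these same libraries, KO with WT, and libraries with Gabra6 above 5 CPM (a count scaled to the size of its library) with libraries without it. Their values in both comparisons are therefore a description. Where a fit is said to call them, the call is part of that description and not a test. Gabra6 encodes a receptor subunit of cerebellar granule neurons. WT replicate 1 held 63.8 CPM of it, KO replicate 1 held 80.0 CPM, and KO replicate 3 held 22.1 CPM, the value closest above the threshold. In WT replicates 2 and 3 and KO replicate 2 it had a count of 0. The limit set on a count of 0, 3 counts, equals 0.203, 0.181 and 0.189 CPM there.

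ZIC proteins bind DNA through zinc fingers that resemble those of the GLI proteins, the transcription factors at the end of the hedgehog pathway. In the embryo they act in the dorsal neural tube and neural crest. Zic2 is known for its part in the division of the forebrain midline, and joint loss of ZIC1 and ZIC4 in people has been linked to a malformation of the cerebellum. After birth, Zic1 is abundant in granule cell precursors and granule neurons of the cerebellum. ZIC genes are also transcribed in fibroblasts of the meninges, in parts of the thalamus and in interneurons of the olfactory bulb. In RNA from bulk tissue, more cells that express a gene and more RNA of that gene per cell cannot be told apart.

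The 4 genes lie as 2 pairs, with the genes of a pair transcribed in opposite directions, away from each other. By GENCODE M21 on mm10, Zic1 spans chr9:91358058-91365810 on the minus strand with 5693 exonic bases. Zic4 spans chr9:91362413-91389348 on the plus strand with 10335 exonic bases over all transcripts. Their spans overlap by 3398 bp and their exons by 60 bp on opposite strands. The strand setting of the authors' counting is not given in the sources used here, so reads in those 60 bp could be shared. Zic5 spans chr14:122456795-122465677 on the minus strand with 4889 exonic bases, and Zic2 spans chr14:122475435-122479852 on the plus strand with 2880. The RefSeq starts of Zic5 and Zic2 were 9726 bp apart.

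**Figure D1:**
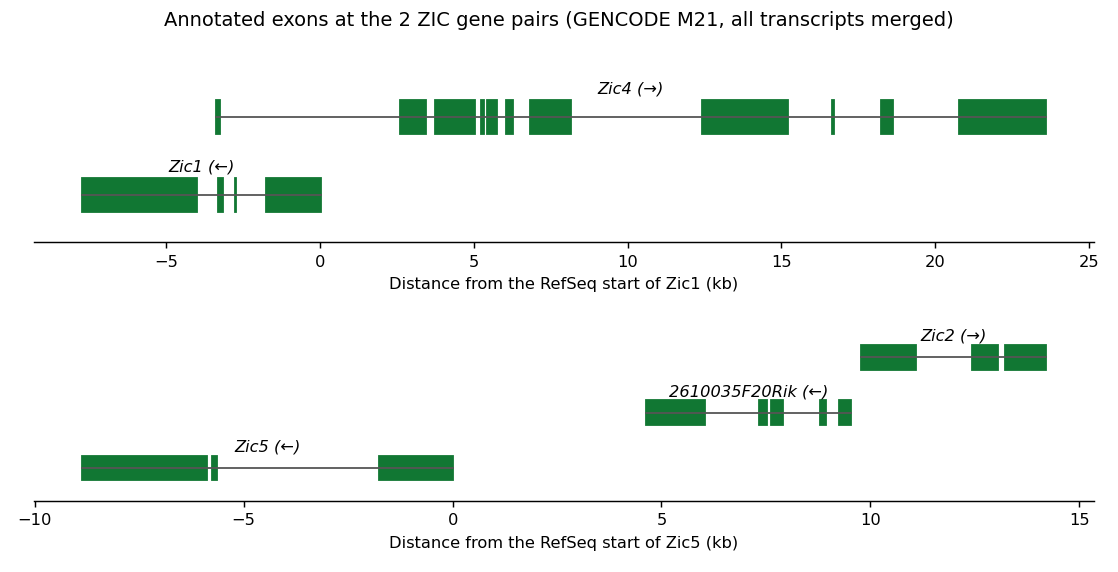
Merged GENCODE exons (boxes) of the ZIC pairs and of 2610035F20Rik, with distance in kb from the RefSeq start of Zic1 (upper map) or Zic5 (lower map) on the x axis and arrows for the direction of transcription. The first Zic4 exon lies inside the Zic1 gene, while Zic5 and Zic2 do not overlap.

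The sequence upstream of Zic1 and Zic5 shows how differently the first gene of each pair begins. The windows run from 250 to 51 bases before the RefSeq start on GRCm38.p6, on the minus strand at chr9:91365819-91366018 for Zic1 and chr14:122465709-122465908 for Zic5, and are written 5′ to 3′ along the direction of transcription. The Zic1 window lies inside the annotated span of Zic4 on the other strand and holds no GENCODE exon. Capitals mark matches, on either strand, to the GC box GGGCGG, the CCAAT box, the E-box CACGTG, the TATA box TATAAA, a GLI-type site TGGGTGGTC or a ZIC-type site CAGCAGG.
Zic1: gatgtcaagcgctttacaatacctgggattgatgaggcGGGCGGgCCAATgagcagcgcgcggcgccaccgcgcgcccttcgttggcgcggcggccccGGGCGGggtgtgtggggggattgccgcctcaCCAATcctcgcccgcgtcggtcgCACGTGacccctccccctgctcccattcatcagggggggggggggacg
Zic5: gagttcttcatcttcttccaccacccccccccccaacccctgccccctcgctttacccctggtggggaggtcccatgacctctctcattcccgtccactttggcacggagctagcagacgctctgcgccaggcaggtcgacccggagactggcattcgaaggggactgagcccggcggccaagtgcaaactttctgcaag
The Zic1 window held 2 GC boxes, 2 CCAAT boxes and 1 E-box that do not overlap each other, a GC content of 71.5% and 24 CpG dinucleotides. The Zic5 window held none of the 6 motifs, with a GC content of 63% and 10 CpG. Over 32851 RefSeq promoters cut to the same 200 bases, the median was 51.5% GC and 4 CpG. The GC box was present in 24.6% of them, CCAAT in 28.4%, the TATA box in 9.14%, CACGTG in 4.34%, the GLI-type site in 0.192% and the ZIC-type site in 6.82%. A match is a run of letters and not a measured binding site. Windows for Zic2 and Zic4 are not shown here.

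The libraries held 15089140 to 16872925 counts, so that 3 counts equalled at most 0.203 CPM. For Prmt5 the WT libraries read 90.8, 90.4 and 91.8 CPM and the KO libraries 68.2, 68.4 and 81.6 CPM. The KO values lay below the WT values, with a log2 fold change of -0.32 (SE 0.0950) and an edgeR adjusted p of 0.232, or 0.0379 when the fit had a replicate block. Mbp, the myelin basic protein gene of oligodendrocytes, ran from 4075 to 5632 CPM in WT and from 469.5 to 964.2 CPM in KO. Xist, a transcript of female cells, was at 509.1 CPM or more in KO replicates 1 and 2 and WT replicate 2 and at most 0.254 CPM elsewhere.

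Zic1 had the highest counts of the 4 genes. Taking replicates 1, 2 and 3 in turn, the WT libraries read 150.3, 34.3 and 30.8 CPM. The KO libraries read 184.4, 59.0 and 72.5 CPM. WT replicate 1 and KO replicate 1 stood far above the other 4 libraries, and the groups overlapped. Zic4, its neighbour on chromosome 9, was at 18.2, 6.29 and 4.33 CPM in WT. In KO it was at 19.5, 11.1 and 11.1 CPM. The same pair of libraries was high, and here too the groups overlapped.

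The Zic2 level was 62.5, 18.1 and 15.9 CPM in the WT libraries. It was 71.3, 26.3 and 37.2 CPM in the KO libraries. Its order over the libraries was the order of Zic1. Zic5, the partner of Zic2 on chromosome 14, was much scarcer, with 86, 27 and 27 counts or 5.37, 1.82 and 1.62 CPM in WT. In KO it had 90, 17 and 32 counts or 5.47, 1.07 and 2.03 CPM. KO replicate 2 was the lowest library for Zic5 although it was above WT replicates 2 and 3 for the other 3 genes, and its 95% exact Poisson interval (0.624 to 1.71 CPM) overlapped those of WT replicates 2 and 3 (1.20 to 2.65 and 1.07 to 2.36 CPM). Such intervals cover counting error only.

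The ratio of the highest to the lowest library was 5.99 for Zic1, 4.47 for Zic2, 4.49 for Zic4 and 5.11 for Zic5. Summed over the 4 genes, the level was 236.3, 60.5 and 52.7 CPM in WT and 280.6, 97.4 and 122.8 CPM in KO.

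**Figure D2:**
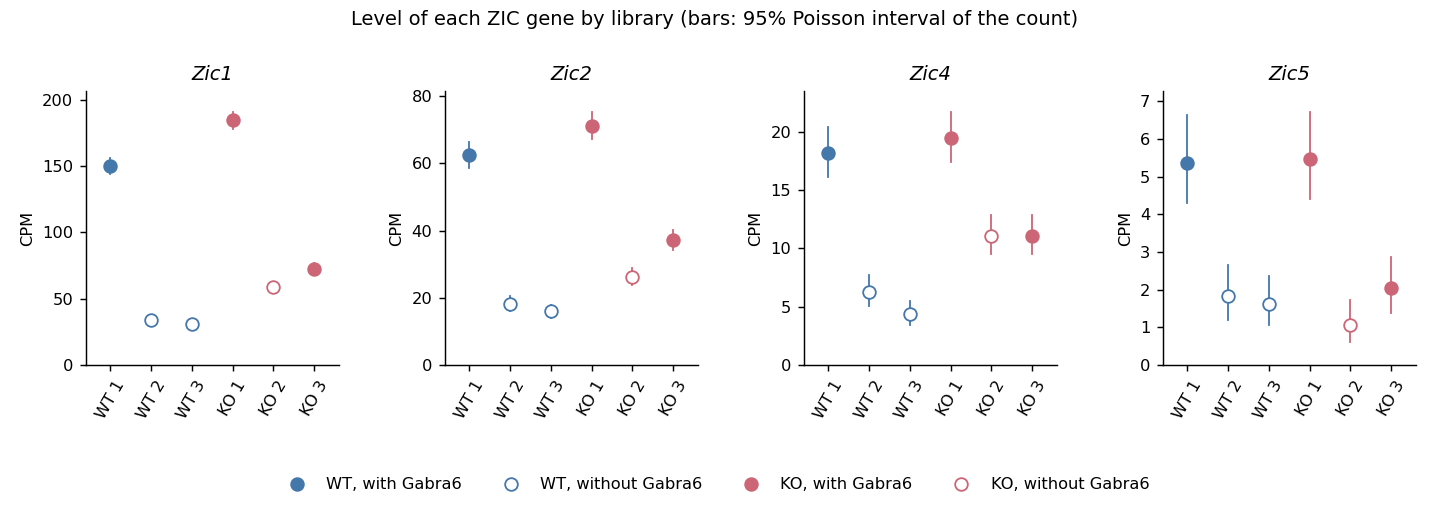
Level of each ZIC gene in CPM (y axis, one scale per gene) in the 6 libraries (x axis), with filled points for libraries with Gabra6 and bars for the 95% Poisson interval of the count. Zic1, Zic2, Zic4 and Zic5 are all highest in WT replicate 1 and KO replicate 1.

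Per kb of exon, Zic1 and Zic2 were at similar levels, and neither was the higher in every library. The WT libraries held 26.4, 6.02 and 5.41 CPM per kb of Zic1 and 21.7, 6.29 and 5.54 of Zic2. The KO libraries held 32.4, 10.4 and 12.7 CPM per kb of Zic1 and 24.7, 9.12 and 12.9 of Zic2. Zic1 was the higher of them in KO replicates 1 and 2 and WT replicate 1, and Zic2 in the other 3. Their means in WT were 12.6 ± 11.9 and 11.2 ± 9.12 CPM per kb (SD, n = 3). Both genes were measured in the same libraries, so that spread does not measure the difference between them. Zic4 followed at 0.419 to 1.88 CPM per kb. Zic5 was the lowest of the 4 genes in every library, at 0.219 to 1.12 CPM per kb. The level of Zic4 per kb depends on a merged length that sums the exons of all its transcripts.

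Libraries with Gabra6 held more ZIC RNA than libraries without it. With genotype as a covariate in edgeR's quasi-likelihood fit of all genes, the log2 fold change was 1.66 for Zic1 (SE 0.295), 1.46 for Zic2 (SE 0.231), 1.11 for Zic4 (SE 0.291) and 1.71 for Zic5 (SE 0.383). At an adjusted p under 0.05, Zic1 and Zic2 were among the 121 genes called of 16592, a share of 0.729%. The members were picked with this comparison known, so nothing is read from that count. DESeq2 called Zic2, Zic4 and Zic5 (background 1.24%), and edgeR with no filter on low counts called all 4 (background 2.03%). With the replicate block the values were lower, at 0.72 for Zic1 (SE 0.177), 0.88 for Zic2 (SE 0.217), 0.94 for Zic4 (SE 0.359) and 0.58 for Zic5 (SE 0.652). That fit called Zic1 and Zic2, beside 0.765% of all genes. Its difference rests on replicate 3, the only replicate number at which KO and WT differ in Gabra6. The fit also leaves fewer residual degrees of freedom than any other fit that used all libraries, so its SEs are themselves uncertain. Every library with Gabra6 was above every library without it for Zic1, Zic2 and Zic5, which held for 6.44% of genes tested. The gaps were narrow, since KO replicate 3 was at 72.5 CPM for Zic1 against 59.0 CPM in KO replicate 2, and at 2.03 CPM for Zic5 against 1.82 CPM in WT replicate 2. For Zic4, KO replicates 2 and 3 could not be ranked.

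The 3 libraries with Gabra6 were not alike. Relative to the mean of WT replicates 2 and 3, WT replicate 1 was 4.62-fold higher for Zic1, 3.67-fold for Zic2, 3.42-fold for Zic4 and 3.11-fold for Zic5. KO replicate 1 was 5.67-fold, 4.19-fold, 3.67-fold and 3.17-fold higher for the same genes. KO replicate 3 was 2.23-fold, 2.18-fold and 2.08-fold higher for Zic1, Zic2 and Zic4 and 1.18-fold for Zic5. Markers of the cerebellum were lower in KO replicate 3 too. Pcp2, a gene of Purkinje cells, was at 59.8 CPM in WT replicate 1, 66.0 CPM in KO replicate 1, 39.3 CPM in KO replicate 3 and 2.89 to 3.02 CPM in the other 3 libraries. Cbln3, a synaptic protein gene of granule cells, was at 95.6, 84.5 and 29.4 CPM in the same 3 libraries and at most 0.756 CPM in the others. The 10 Hox genes on the list for hindbrain position had no count in WT replicates 2 and 3 and KO replicate 2. They summed to 16.3 CPM in WT replicate 1, 25.1 CPM in KO replicate 1 and 1.91 CPM in KO replicate 3. Of these genes only Hoxb5 passed the filter on low counts. It passed through the libraries with Gabra6 alone, so it could only come out higher in them, and its call is no test.

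Over the list of granule cell genes, 10 of 14 tested were higher in the libraries with Gabra6 (median log2 fold change 2.47), among them the transcription factor genes Neurod1, Pax6, Barhl1 and En2. Of 11 tested Purkinje cell genes 8 were higher (median 1.38), and of 8 tested genes of granule cell precursors 2 were (Barhl1 and Pax6, both also on the granule cell list). Of all genes, 0.621% were called higher. With the replicate block 7 of the 14 granule cell genes, 5 of the 11 Purkinje cell genes and 0 of the 8 precursor genes were called higher. Pax6 and Barhl1 were no longer among them. That fit called 42 of all genes higher. Gabra6 set the split, so its own call and those of genes that go with it describe the libraries. Meningeal genes were not called in the main edgeR fit or by DESeq2. Of 14 meningeal fibroblast genes, edgeR and DESeq2 each called 0, with 1 at an unadjusted p under 0.05 (8.53% of all genes), and their median was -0.00149, beside -0.00213 over all genes. Of 10 tested mesenchymal transcription factor genes both tools also called 0, with 1 at an unadjusted p under 0.05 (median 0.11). In other edgeR fits Igf2, a gene of the fibroblast list, was called lower with the replicate block (background 0.765%). Msx2, on the mesenchymal list, was called higher with no filter (background 2.03%), with a sex term and without KO replicate 3. The summed level of the fibroblast list was 891.9 to 1302 CPM in the libraries with Gabra6 and 878.2 to 1191 CPM in those without. Of 11 tested genes of thalamus and habenula edgeR called 1 higher, Rora, which is also on the Purkinje cell list. DESeq2 called 2 of them higher, Rora and Slc17a6, and 4 had an unadjusted p under 0.05 in edgeR (median 0.14). Of 9 tested olfactory bulb genes edgeR called 0 and DESeq2 called 1, Slc17a6, which is on both lists, with 7 at an unadjusted p under 0.05 (median 0.03). All 10 listed forebrain genes had negative values (median -0.42), and 8 had an unadjusted p under 0.05. For these edgeR called 1 lower, Dlx1, and DESeq2 called 3 lower, Dlx1, Dlx2 and Ppp1r1b. With no filter on low counts edgeR called 6 forebrain genes lower and 4 thalamic and habenular genes higher. It then called 3 olfactory bulb genes higher and 2 lower, beside 2.03% of all genes. The part of each of these tissues in the ZIC values was not tested. Without WT replicate 1 only 1 gene, Pcp2, was called in this comparison, and without KO replicate 3, 799 were. Without KO replicate 2 the count was 19. The log2 fold change of Zic4 was 0.46 without WT replicate 1 and 1.79 without KO replicate 2. None of the 4 genes was called by edgeR when any WT library or KO replicate 2 was left out, only Zic2 was called without KO replicate 1 (background 0.475%), and all 4 were called without KO replicate 3 (background 4.74%).

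In KO against WT over all 6 libraries, Zic1, Zic2 and Zic4 had higher means in KO and Zic5 did not, all within a wide spread. The mean of Zic1 was 71.8 ± 68.0 CPM in WT against 105.3 ± 68.9 CPM in KO (SD, n = 3), which gave a log2 fold change of 0.55 (SE 0.568). For Zic2 the means were 32.2 ± 26.3 and 44.9 ± 23.5 CPM (0.48, SE 0.481), and for Zic4 9.60 ± 7.49 and 13.9 ± 4.84 CPM (0.53, SE 0.437). Zic5 averaged 2.94 ± 2.11 CPM in WT and 2.86 ± 2.31 CPM in KO (-0.04, SE 0.581). edgeR called 0 of the 4 genes, with 0 at an unadjusted p under 0.05 and 0 called by DESeq2, beside 1.2% of all genes called and 9.67% at that unadjusted p. The values rested on single libraries. Without WT replicate 1 the values were 1.70, 1.40, 1.39 and 0.73 for Zic1, Zic2, Zic4 and Zic5, and without KO replicate 1 they were -0.13, -0.02, 0.20 and -0.92. Without KO replicate 2 Zic5 was at 0.35.

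Each KO library was above the WT library of the same replicate number for Zic1, Zic2 and Zic4, as for 19.3% of genes tested. The ratios were 1.23, 1.72 and 2.36 for Zic1 in pairs 1 to 3, 1.14, 1.45 and 2.33 for Zic2, and 1.07, 1.76 and 2.55 for Zic4. For Zic5 they were 1.02, 0.587 and 1.25. With the replicate number as a block, Zic1 and Zic2 were called (log2 fold change 0.75, SE 0.122, and 0.62, SE 0.142), where 3.41% of all genes were called. Zic4 (0.70, SE 0.194) and Zic5 (-0.09, SE 0.294) were not called in that fit. The members were picked with KO against WT known, so nothing is read from these calls. Pair 3 sets a KO library with Gabra6 against a WT library without it, and it had the largest ratio for all 4 genes.

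The difference depended on the libraries compared. With a term for Gabra6 in the fit the log2 fold change for KO over WT was 0.29 for Zic1 (SE 0.290), 0.18 for Zic2 (SE 0.228) and 0.36 for Zic4 (SE 0.289), and -0.58 for Zic5 (SE 0.380). Among the libraries with Gabra6, 2 KO against 1 WT, all values were negative but small beside their SEs. They were -0.23 for Zic1 (SE 0.240), -0.21 for Zic2 (SE 0.238), -0.26 for Zic4 (SE 0.292) and -0.52 for Zic5 (SE 0.418). There KO replicate 1 was above WT replicate 1 for the 4 genes and KO replicate 3 below it. Among the libraries without Gabra6, 1 KO against 2 WT, the values were 0.86 for Zic1 (SE 0.129), 0.63 for Zic2 (SE 0.173) and 1.07 for Zic4 (SE 0.253), and -0.68 for Zic5 (SE 0.618). The first 3 of these genes were called there, as were 7.37% of all genes, in a fit that assumes the lone KO library to vary like the others. KO replicate 2 was 1.81-fold, 1.54-fold and 2.09-fold above the mean of WT replicates 2 and 3 for Zic1, Zic2 and Zic4, and at 0.621 times that mean for Zic5. It lay above both WT libraries for 39% of genes tested and below both for 37.6%. Whether the KO difference itself differed between the 2 sets of libraries was not tested.

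**Figure D3:**
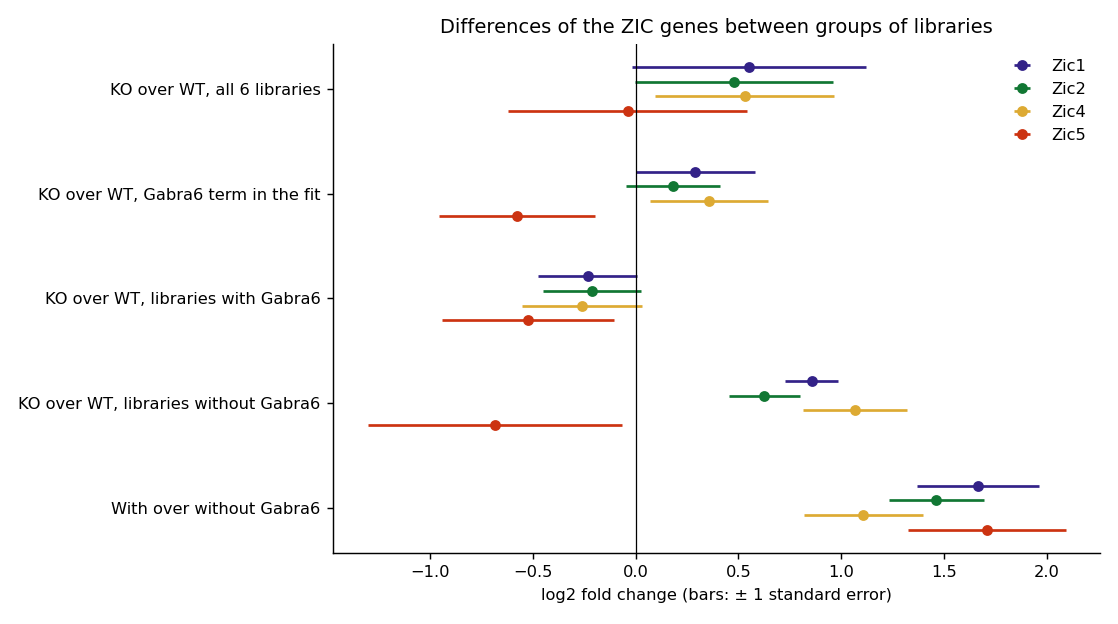
Log2 fold change (x axis, bars for 1 SE) of the ZIC genes in each comparison (y axis). Zic1, Zic2, Zic4 and Zic5 lie above 1 for libraries with over without Gabra6, whereas KO over WT ranges from -0.68 to 1.07 depending on the libraries compared.

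Other tissues that use ZIC genes were followed by lists of marker genes. Meningeal fibroblast genes were higher in KO, where 5 of 14 rose (Col1a1, Col1a2, Col3a1, Lum and Slc6a13) with a list median of 0.68, against 0.241% of all genes called higher and a median of 0.01. Over all genes, 40 were called higher in the main fit. With the replicate block 9 of the 14 were called higher, beside 171 of all genes, and with a sex term 4, beside 15. The list count was 2 without WT replicate 3 (Col3a1 and Lum), beside 9 of all genes. It was 3 without WT replicate 1 or WT replicate 2 (Col1a1, Col3a1 and Lum), beside 25 and 11 of all genes. Col3a1, a fibrillar collagen gene, was at 26.4, 18.4 and 25.8 CPM in WT and at 101.9, 77.2 and 66.9 CPM in KO. Every KO library was above every WT library, as for 8.02% of genes tested. The list median was 0.68 with the Gabra6 term as well and 0.61 in the libraries without Gabra6. The summed level of the list was 878.2 to 948.8 CPM in WT and 1191 to 1302 CPM in KO. Much of that sum came from Nnat and Ptgds, which the main edgeR fit did not call. Nnat was at 345.8 to 365.5 CPM in WT and 413.1 to 467.7 CPM in KO. Ptgds was at 209.2 to 276.4 CPM in WT and 186.6 to 395.7 CPM in KO. The sum is therefore not a measure of the genes that were called. Of 15 genes for mesenchymal transcription factors 10 were tested and 1 rose, Tbx18 (1.91, SE 0.319, adjusted p of 0.0145 in the edgeR quasi-likelihood test, and 0.0721, 0.0863 and 0.0934 without KO replicate 2, WT replicate 2 or WT replicate 3, and 0.0873 with a sex term), and the list summed to 26.8 to 33.8 CPM in WT and 35.6 to 48.7 CPM in KO. Foxc1, which is needed for the meninges to form, was at 6.50, 6.35 and 4.09 CPM in WT and 8.15, 7.31 and 3.68 CPM in KO. The part of meningeal RNA in the ZIC values was not tested.

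Some genes of the olfactory bulb were highest in KO replicate 2, 5 of the 10 on the list (Tbx21, Cdhr1, Doc2g, Sp8 and Meis2). Of the others 2 were highest in KO replicate 1, 2 in KO replicate 3 and 1 in WT replicate 1. KO replicate 2 was also highest for 5 of 10 forebrain genes and 5 of 12 choroid plexus genes. A peak there was therefore not particular to the olfactory bulb list, and the share over all genes was not counted. The list summed to 637.7 CPM in KO replicate 2, below the 651.3 CPM of KO replicate 1 and near the 611.5 CPM of WT replicate 1, with 466.3 to 586.7 CPM in the other 3 libraries. In the libraries without Gabra6, 7 of the 10 listed olfactory bulb genes were called higher in KO replicate 2 than in WT (median 1.07), beside 3.26% of all genes. The fit behind these calls set 1 KO library against 2 WT libraries. It assumes the lone library to vary like the others, so nothing is read from the count. Tbx21, among the genes called, passed the filter on low counts there but not over all 6 libraries. It was above 0.361 CPM in KO replicate 2 alone, so it could only come out higher there, and its call is no test. Cdhr1, a cadherin-related gene of mitral and tufted cells, was at 43.3 CPM in KO replicate 2 and at 10.6 to 15.1 CPM in the other 5 libraries. Doc2g was at 17.1 CPM there against 3.49 to 5.02 CPM, and Tbx21, which marks the same projection neurons, at 1.89 CPM against 0.122 to 0.361 CPM. Sp8, a transcription factor gene of olfactory bulb interneurons, was at 7.06 CPM against 1.94 to 4.45 CPM. These genes were picked for mention after their values were seen, and others on the list had their highest level elsewhere. Calb2 was at 188.0 CPM in KO replicate 2 against 210.6 CPM in KO replicate 3, and Eomes at 9.58 CPM against 10.5 CPM in KO replicate 1. Zic1, Zic2 and Zic4 were above WT replicates 2 and 3 in this library and Zic5 was below, and the part of olfactory bulb RNA in those values was not tested. Over all 6 libraries 0 of 9 tested olfactory bulb genes were called by edgeR, 4 had an unadjusted p under 0.05 and DESeq2 called 1, Calb2, with a median of 0.63. With the Gabra6 term 2, Doc2g and Sp8, were called, beside 1.38% of all genes.

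**Figure D4:**
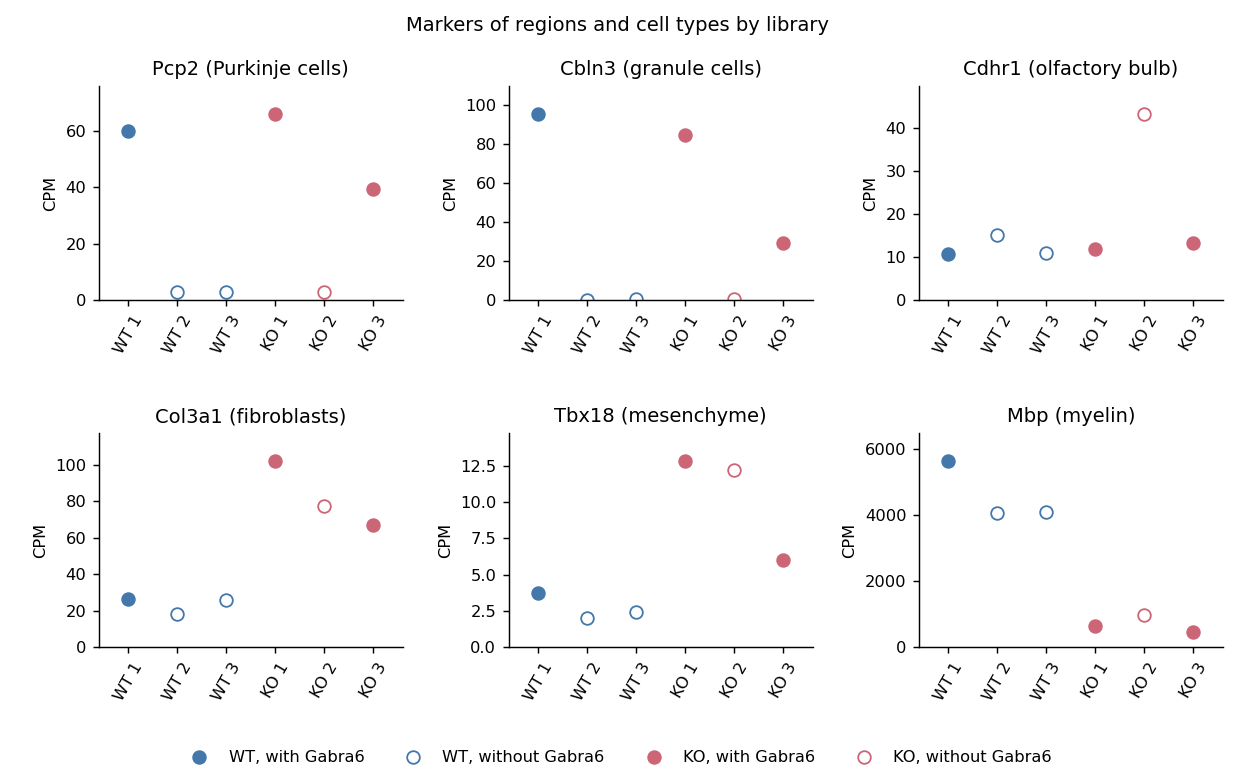
Level in CPM (y axis) of 6 marker genes in each library (x axis), with filled points for libraries with Gabra6. Pcp2 and Cbln3 are high in KO replicates 1 and 3 and WT replicate 1, Cdhr1 in KO replicate 2, Col3a1 and Tbx18 in all KO libraries, and Mbp in all WT libraries.

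In the other lists few genes were called between the genotypes, apart from myelin genes. Choroid plexus genes had a median of 0.36, with positive values for 10 of 12. The 1 gene called, Enpp2, a lipid enzyme gene, went against that direction and was lower (-0.71, SE 0.149, adjusted p of 0.0482 in the edgeR test, and 0.0654 to 0.256 when any library but KO replicate 1 was left out). Ttr, the transthyretin gene, was the only one called with the Gabra6 term, and it was higher. Thalamic and habenular genes had a median of 0.24 with 0 of 11 called, by edgeR or DESeq2, and 0 at an unadjusted p under 0.05. Purkinje cell genes had a median of 0.23 with 0 of 11 called on all of these counts. Granule cell genes had a median of 0.37, and -0.29 with the Gabra6 term. Of these 14, edgeR called 0, DESeq2 called 1, Grin2c, and 1 had an unadjusted p under 0.05. Granule cell precursor genes had a median of 0.35 with 0 of 8 called by edgeR, 3 at an unadjusted p under 0.05 and 1, Hhip, called by DESeq2. Genes of blood (4 tested, median -0.12), of hair, skin and muscle (5 tested, 0.05) and of hindbrain position (1 tested) had 0 called by either tool and 0 at an unadjusted p under 0.05. All 10 genes of myelinating oligodendrocytes fell (median -2.62), beside 0.958% of all genes.

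Within each chromosomal pair the balance of the genes was compared by their counts. Per 100 counts of Zic1 there were 12.1, 18.3 and 14.1 counts of Zic4 in WT replicates 1 to 3. There were 10.6, 18.8 and 15.2 in KO replicates 1 to 3. The ratio was lowest in the libraries with most Zic1, and the groups overlapped. Per 100 counts of Zic2 there were 8.6, 10.1 and 10.2 counts of Zic5 in WT. There were 7.68, 4.08 and 5.47 in KO, so each KO library was below each WT library, as was the case for 1.05% of genes set against Zic2. That share is low by construction. Zic2 was at 62.5 CPM in WT replicate 1 and 26.3 CPM in KO replicate 2, so a gene of constant level could not meet the criterion. The share therefore does not measure how rare the pattern is. The members were chosen with KO against WT known, so the ratio is a description. The 95% exact intervals of the ratio overlapped between KO replicate 1 (6.13 to 9.52) and WT replicate 1 (6.82 to 10.7), and the interval of KO replicate 2 (2.35 to 6.61) ended just below that of WT replicate 1 and overlapped those of WT replicates 2 and 3. Zic1 made up 56.6% to 65.7% of the counts of the 4 genes and Zic5 1.10% to 3.08%.

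**Figure D5:**
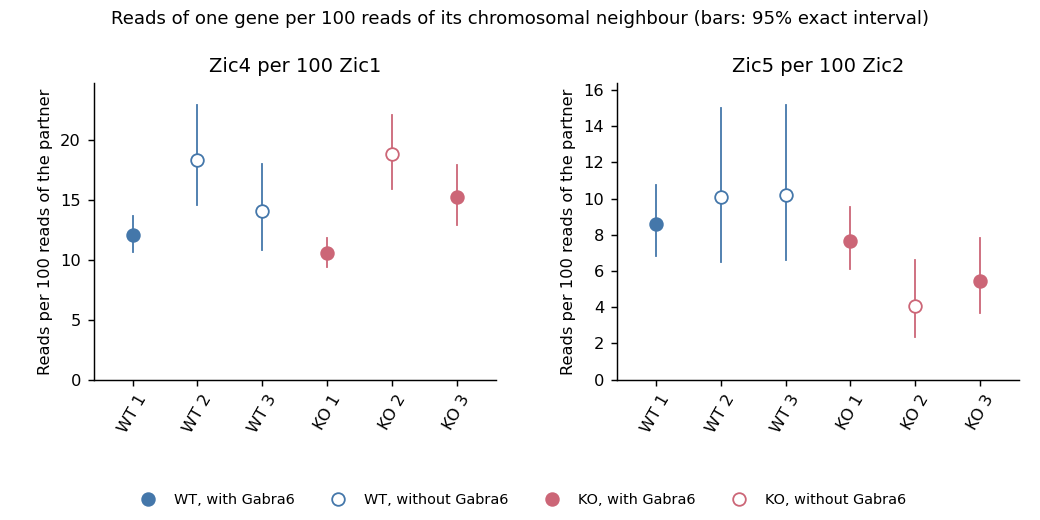
Counts of Zic4 per 100 counts of Zic1 (left) and of Zic5 per 100 counts of Zic2 (right) on the y axis, by library on the x axis, with 95% exact intervals. Zic5 per Zic2 runs from 4.08 to 7.68 in KO and from 8.6 to 10.2 in WT, while Zic4 per Zic1 overlaps between the groups.

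The pathway of the related GLI factors was followed with 15 hedgehog genes, of which 13 were tested. For KO over WT their median was 0.04 and edgeR called 0, with 2 at an unadjusted p under 0.05, while DESeq2 called 1, Hhip (1.89% of all genes). Hhip, a membrane protein that binds and restrains hedgehog ligands, was at 8.54 to 11.9 CPM in WT and at 4.45 to 6.05 CPM in KO. Every KO library was below every WT library, as for 7.99% of genes tested, and its log2 fold change was -0.93 (SE 0.196) with an edgeR adjusted p of 0.053, which was 0.048 with the Gabra6 term and 0.004 under the block. Gli1, a GLI factor that is itself a target of the pathway, was at 5.12, 3.04 and 3.13 CPM in WT and 8.45, 7.50 and 5.46 CPM in KO. Its value was 0.92 (SE 0.260), with an edgeR adjusted p of 0.204 (0.0144 under the block). Ptch1, the receptor gene and another target, was at 56.2, 40.3 and 43.7 CPM in WT and 61.6, 38.1 and 44.9 CPM in KO (0.04, SE 0.176). Shh, the ligand gene, stayed between 2.98 and 4.35 CPM (0.02, SE 0.232), and Smo, the signal transducer, had a value of 0.35 (SE 0.185).

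Between libraries with and without Gabra6, edgeR and DESeq2 each called 0 of these 13 genes, with 3 at an unadjusted p under 0.05 (Ptch1 0.45, Sufu 0.43 and Boc 0.40 on the log2 scale).

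Genes next to the ZIC pairs did not all follow them. The noncoding gene 2610035F20Rik begins 235 bp from Zic2 on the opposite strand and had 22, 11 and 6 counts in WT and 32, 11 and 7 counts in KO. Gm5089, which lies 5679 bp from Zic5, had 82, 25 and 43 counts in WT and 85, 68 and 46 counts in KO, and is annotated at another place nearby too, so its reads cannot be placed. Both were most abundant in WT replicate 1 and KO replicate 1. The log2 fold change for libraries with over without Gabra6 was 1.06 for 2610035F20Rik and 0.57 for Gm5089, neither called. Clybl (0.09) and Pcca (0.10), mitochondrial enzyme genes on the far sides of the chromosome 14 pair, had 308 to 450 and 315 to 420 counts. No other annotated gene within 100 kb of the pairs was matched in the count table.

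The genes with the most similar levels over the 6 libraries were ranked by Pearson's r of log2 CPM among 14831 candidates. For Zic1 they were Il16 (r = 0.9954), Casq2 (0.995) and Fgf7 (0.9943). For Zic2 they were Slc41a3 (0.9953), Fgf7 (0.9947) and Il16 (0.9942). For Zic4 they were Hnrnpa3 (0.9945), AK047370 (0.9881) and Fabp7 (0.9865), and for Zic5 they included Nkain1 (0.9928) and Sp5 (0.9907). These are the extremes of many candidates over only 6 libraries that share a split by cerebellar transcripts, and they are given as a description. Il16, an interleukin gene that is also transcribed in cerebellar neurons, was at 31.5, 4.60 and 3.97 CPM in WT and 31.5, 8.13 and 11.2 CPM in KO, the same order of libraries as Zic1. Fgf7, a growth factor gene of mesenchymal cells, was at 3.62, 0.811 and 0.722 CPM in WT and 3.53, 1.39 and 1.78 CPM in KO. Gabra6 itself ranked 225 for Zic1 (r = 0.9053), 136 for Zic2, 430 for Zic4 and 442 for Zic5. Over deviations from the group means, the leading genes were Il16 for Zic1 (r = 0.9983), Dcbld1 for Zic2 (0.9982), Cog5 for Zic4 (0.9952) and Zfp521 for Zic5 (0.999).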

How the data were processed

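RNA was extracted with Trizol and sequenced as 150 bp paired-end reads from polyadenylated-RNA libraries, per the labels' protocols. STAR 2.3.0e, featureCounts 1.5.0, DESeq2, Trimmomatic 0.32 and FastQC 0.11.2 are named with the mm10 build, per the submitters' processing notes. The authors deposited whole-number read counts per gene, used for all results, and a normalized signal, which equalled the deposited count divided by 1 factor per library (largest difference 4.9e-10). Columns were matched to samples by their labels. Of 31276 genes, 16592 passed filterByExpr. TMM scaling and quasi-likelihood tests were run in edgeR 4.0.16 (R 4.3.3). KO against WT had 4 residual degrees of freedom, 3 with the Gabra6 term and 2 with the replicate block. Fewer were left with the block, genotype and Gabra6 together, and in fits on the libraries with or without Gabra6 alone. A Benjamini-Hochberg adjusted p under 0.05 was called. CPM uses TMM-scaled totals. DESeq2 1.42.0, another scaling, no filter, a sex term (Xist above 5 CPM) and leaving out each library were alternatives.

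The members, the gene lists and the rule for named genes were chosen with earlier results of these data known. The rule took the members, library checks, the 3 genes most like each member (mean of at least 1 CPM, prior count 2), list genes that were called or had the smallest p, and neighbours within 100 kb. Other genes are named as chosen after their values were seen, and some genes that met the rule are not reported here. Deviations from group means correlated at 0.351, 0.334 and 0.177 between same-numbered libraries, above the limit of 0.1. Without the genes called between libraries with and without Gabra6 they correlated at 0.224, 0.228 and 0.22. Libraries of one number were treated as a pair in the same-numbered ratios and in the fits with a replicate block, which the labels do not state. The main fits had no replicate term. No 2 libraries of a group agreed within counting noise. Promoter windows are from RefSeq (GRCm38.p6), with entries found for Zic1 and Zic5 that met the rule of holding no annotated exon.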

Additional observations from a re-analysis of the deposited data

How the results depend on the processing

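For KO against WT, 12 of 14 alternatives gave a positive value for Zic1 and Zic2, 13 for Zic4 and 4 for Zic5, and DESeq2, its size factors in edgeR and no filter moved none of the 4 by more than the spread between libraries. Leaving out each library gave -0.13 to 1.70 for Zic1, -0.02 to 1.40 for Zic2, 0.17 to 1.39 for Zic4 and -0.92 to 0.73 for Zic5. For libraries with over without Gabra6 all 12 alternatives were positive for the 4 genes. Leaving out each library gave 1.12 to 2.22 for Zic1, 1.05 to 1.88 for Zic2, 0.46 to 1.79 for Zic4 and 1.39 to 1.91 for Zic5. With the replicate block that difference was 0.72 for Zic1, 0.88 for Zic2 and 0.58 for Zic5, and it rests on pair 3, the pair that differs in Gabra6. Genes called in KO against WT numbered 199, and 313 with DESeq2, 566 with the replicate block, 129 with a sex term, 1254 among libraries without Gabra6 and 100 to 305 without each library in turn. Genes called with against without Gabra6 numbered 121, and 450 with no filter, 205 with DESeq2, 237 with a sex term, 73 without the genotype covariate and 1 to 799 without each library in turn. Of the listed genes 17 were called in KO against WT, 31 with the replicate block, 40 among libraries without Gabra6 and 12 to 18 without each library. Fits without one library or on a part of the libraries have fewer samples; otherwise the cause was not tested. With 17 to 90 counts per library, Zic5 was the member most limited by depth.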
